A study of Citrus maxima and Citrus sinensis with 12 samples.

Results

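Among the miRNAs identified in citrus root tips, 28 distinct mature sequences of 24 nt carried the name of a homologue in another plant and lay outside a list of other families. They were chosen by length and by a homologue name in the authors' list, after removal of listed family numbers. The removed numbers include well-conserved families such as miR156, miR319 and miR396, but not only such families. No measured level entered this rule, but the members were chosen with earlier results of these data known. The rule took 37 of the 172 entries (miRNA loci) of the count table, which hold these 28 of its 126 distinct sequences. Further loci of miR8553b-s2 without a homologue name were not taken. Each sequence is described once, by the entry with the most counts among its entries that carry a homologue name.

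The plants were seedlings of pummelo (C. grandis, Citrus maxima in the labels) and of sweet orange, C. sinensis, 11 weeks old when sand culture began. Control plants received nutrient solution (Hogland's in the labels) with 10 µM H3BO3 and boron-toxic plants 400 µM, every other day over 15 weeks in a greenhouse. The 4 groups of species by boron level hold 3 libraries each, and the RNA of 5 replicates was mixed for a library. The labels do not say whether the libraries of a group came from different plants, so the p-values measure the spread between these libraries, which may be technical. The table lists miRNAs only, so the labelled tissue could not be checked against marker genes. Library totals ran from 479090 to 1062488 counts; with 1 entry kept for each sequence they ran from 282149 to 577150. Levels are given as CPM, counts scaled to a common library size after correction of the library sizes by trimmed means, as mean ± SD over 3 libraries. These library sizes sum all entries that passed the filter on low counts, so a sequence with several loci enters more than once. Shares in percent use the totals with 1 entry for each sequence, so CPM and shares are on unlike scales.

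In plants, most miRNAs are cut from a hairpin precursor by DICER-LIKE1 and guide an Argonaute protein to transcripts with a matching site. Small RNAs of 24 nt are the usual product of DICER-LIKE3, and those loaded into the ARGONAUTE4 group direct DNA methylation at repeats and transposons. Some hairpins also give long miRNAs of this length, and a hairpin locus alone does not tell such a long miRNA from the siRNAs of an inverted repeat. Argonaute sorting depends in part on the first base, with adenine favoured by the ARGONAUTE4 group and uracil by ARGONAUTE1.

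Sequences are written 5′ to 3′ as RNA, as the authors list them, with the seed (bases 2 to 8) in capitals. The first set holds sequences that differed between the species, those with more in C. sinensis coming before those with less. No seed was shared by any of the 28 sequences, so each stands as a seed group of its own, and only the seed of miR473a-5p occurred in a different sequence of the table.
miR7496a: uUAGUGAAuucugucgauuuggac
miR473a-5p: gUACUGUAgccgugagggggacgc
miR8713: aCAAUGACuguuuuuauaaauaac
miR2595: aAGGACAUaaagaauaaugcaaau
miR5077: aUUGGUCGggugcaccaccucagc
miR841b-3p: aAAUUUCUuaggauuugaaacgug
miR7764-5p: uGCAUCAGauuuaggauauggagg
miR8695: aGGAUGUAaaguaaucacgaugug
miR5224b: aAAGGAUUcucuaggagaacgugu
miR780.2: aGCUGUCCuucgugaauucauggc
miR6109: aUGGACGAuuuacucauuggaagu
miR5206a: aCGGGGGAuucuuuugguugggga

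The second set is shown because it holds 1 stretch in common. The 3 sequences named miR8553b (here s1, s2 and s3) and miR5014a-3p share a core of 13 nt, in capitals, whose first 8 nt are their own reverse complement. A 24-nt sequence that the authors named after miR168b-3p, outside the 28, holds the same core and differs from miR8553b-s1 by 1 edit.
miR8553b-s1: aauuuauuUUGUACAAACUGAcgu
miR8553b-s2: acuuauuUUGUACAAACUGAcgug
miR8553b-s3: auuuauuUUGUACAAACUGAugug
miR5014a-3p: aacuaucUUGUACAAACUGAcgug
miR168b-3p (24 nt): aauuuaucUUGUACAAACUGAcgu

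A last set shows a pair of hairpins on opposite strands. The miR473a-5p hairpin window on scaffold 3 (plus strand, 50071419 to 50071668) overlapped by 106 nt the window of an unnamed 24-nt entry on the minus strand (50071563 to 50071812). Counted from the 5′ end, the mature sequences differ by C11U and C24U from miR473a-5p to the unnamed entry, and these bases are in capitals. In the star strands the capitals mark the stretch that is the reverse complement of the other entry's mature sequence, 22 nt in the star of miR473a-5p and 23 nt in the other.
miR473a-5p: guacuguagcCgugagggggacgC
unnamed entry: guacuguagcUgugagggggacgU
miR473a-5p star: GUCCCCCUCACAGCUACAGUACcc
unnamed entry star: CGUCCCCCUCACGGCUACAGUACc

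The homologues after which the 28 sequences were named belong to 14 plant species prefixes, led by Arabidopsis thaliana (ath) and Medicago truncatula (mtr) with 4 sequences each, and none carried the prefix of C. sinensis (csi). In poplar, miR475 acts on transcripts of pentatricopeptide repeat proteins. In Arabidopsis, miR780 is known to act on a transcript of a cation/proton exchanger. Whether the citrus sequences act on such transcripts was not tested, and none of the 37 entries appeared in the authors' deposited target table.

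Adenine was the first base of 18 of the 28 sequences (64.3%), uracil of 6, guanine of 4 and cytosine of 0. Of the other 24-nt sequences without a homologue name, 11 of 17 began with adenine (64.7%). Of the 71 sequences of 20 to 22 nt, 51 began with uracil (71.8%) and 11.3% with adenine. The bar chart of the first base sets these shares side by side; they describe this list and carry no test.

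**Figure D1:**
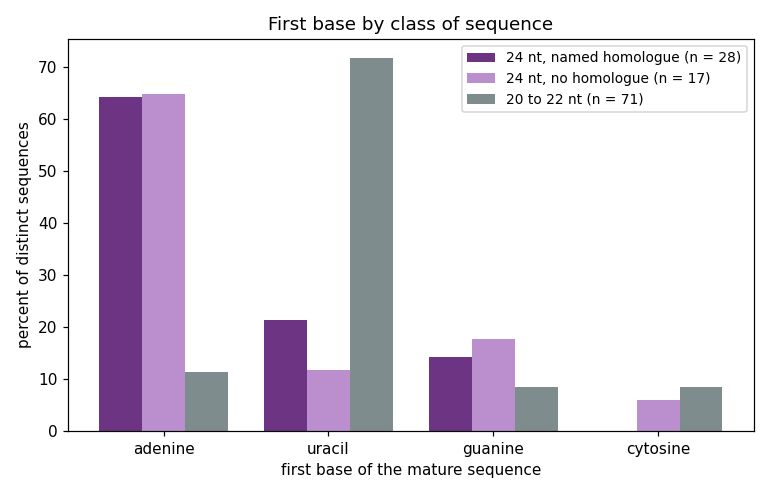
Share of distinct sequences (percent, vertical axis) that begin with each base, for the 28 sequences of 24 nt with a homologue name, the 17 others of 24 nt without one and the 71 of 20 to 22 nt. Adenine leads both 24-nt classes at 64.3% and 64.7%, and uracil leads the shorter class at 71.8%.

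The GC content of the 28 sequences had a median of 39.6% (20.8 to 66.7), against 33.3% for the 24-nt sequences without a name and 52.4% for those of 20 to 22 nt. The authors' hairpin prediction score had a median of 471.8 and ran from 3.4 to 37343.9, with 10 of the 28 under 10. Low scores also fell on sequences described further below: miR5206a scored 7.8, miR841b-3p 3.4, miR7496a 3.6, miR6109 3.4, miR8713 4.7, miR8553b-s3 7.4 and miR5770b 3.7. The rest under 10 were miR478a at 4, miR4414a-3p at 3.5 and miR6157 at 5.5. Of the unnamed 24-nt sequences, 7 of 17 also scored under 10 (median 298.8). Of the 69 scored sequences of 20 to 22 nt, 18 did (median 967.1). The listed star strand was 24 nt long in 15 of the 28 and 23 to 25 nt in 19. Among the 17 unnamed 24-nt sequences it was 24 nt long in 12 and 23 to 25 nt in 15. The longest uninterrupted base-complementary run between mature and star strand was 6 nt in the median (3 to 18), against 7 nt both for the unnamed 24-nt sequences and for the shorter class.

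Among the 28 were sequences found at several loci. miR5206a came from 4 hairpin windows on the plus strand of scaffold 1366, spaced 997 nt apart from start to start, the first at 152 to 401. Its counts were identical at the 4 loci, as they were at the 2 loci each of miR475a-3p, miR5770b and miR8713. The windows of miR475a-3p lay 8950 nt apart on scaffold 5 and those of miR8713 29368 nt apart on the same scaffold. miR8553b-s1 had 4 loci, whose totals differed, the lowest being 84.4% of the highest. The sequence of miR8553b-s2 had 6 loci of which 1 was given a homologue name, so the rule took that locus only, at scaffold 9 (7020850 to 7021099, plus strand). That locus had the lowest total of the 6, at 71.2% of the highest. Across the whole table the shared core occurred in 5 sequences at 14 entries on 8 scaffolds, 12 of these entries having one of the 28 sequences and 7 of them a homologue name that the rule took. For these coordinates the genome build is not given in the sources used here; gene annotation was not used.

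The 28 sequences together took 4.29% to 6.63% of a library's counts, each sequence counted once. The count of miR8553b-s2 came from its named locus, whereas the library totals took its locus with the most counts. The shares of the 28, and the part of miR5206a and miR8553b in them, are therefore somewhat too low. Their share was 5.68% ± 1.21 (SD, n = 3) in C. grandis at 10 µM, 5.25% ± 0.616 at 400 µM, 6.29% ± 0.305 in C. sinensis at 10 µM and 5.59% ± 1.02 at 400 µM, and the groups overlapped. miR5206a and the miR8553b sequences held 60.6% to 80.0% of these counts. Without them the share was 1.13% to 1.76% in the C. grandis libraries and 1.80% to 2.16% in the C. sinensis libraries, 2 ranges that did not overlap. This separation rested on miR473a-5p: without it as well, the share was 1.07% to 1.63% in C. grandis and 1.21% to 1.53% in C. sinensis.

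Mean levels ran from 19.5 to 8389 CPM, and the plot of levels by library shows each value. The highest mean over the 12 libraries belonged to miR8553b-s1 at 8389 CPM, followed by miR5206a at 8218, miR8553b-s2 at 5294, miR473a-5p at 2096, miR5077 at 2069 and miR1028a-3p at 1068. The first 2 do not differ beyond their spread, nor do miR473a-5p and miR5077, whose order depends on the species. In all 12 libraries 16 of the 28 stayed at or above 100 CPM. The lowest were miR8695 at 21.3 CPM and miR9560a-5p at 19.5 CPM, and the latter did not pass the filter on low counts, so that 27 sequences were tested.

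**Figure D2:**
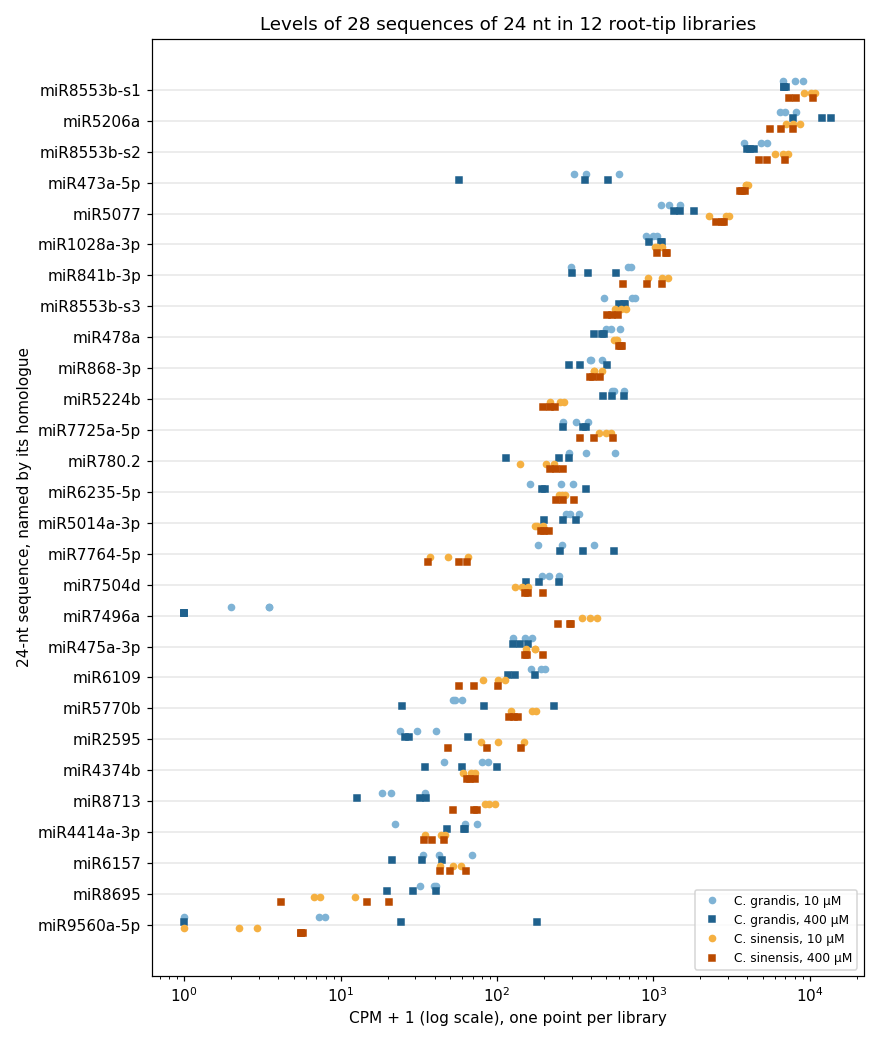
Level of each of the 28 sequences in every library (CPM + 1 on a log axis), with 1 point per library and colour and shape for species and boron level. miR8553b-s1, miR5206a and miR8553b-s2 lie highest in all 4 groups, and miR7496a lies at 244 to 434 CPM in C. sinensis and at 0 to 2.5 CPM in C. grandis.

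None of the core-sharing sequences was called between boron levels. miR8553b-s1 stood at 9111, 8033 and 6773 CPM in C. grandis at 10 µM and at 6805, 6845 and 7097 at 400 µM, and at 10189, 9170 and 10733 CPM in C. sinensis at 10 µM and at 10440, 8121 and 7353 at 400 µM. The C. sinensis libraries were all above the C. grandis ones of the same boron level, whereas the boron levels overlapped. Between the species miR8553b-s1 was not called by edgeR (log2 difference +0.33 at 10 µM and +0.32 at 400 µM, SE 0.18 and adjusted p = 0.174 at both). miR8553b-s2 stood at 5311, 4913 and 3782 CPM in C. grandis at 10 µM and 4164, 4405 and 3981 at 400 µM, against 6721, 6014 and 7228 and then 6927, 5340 and 4746 in C. sinensis. It lay higher in every C. sinensis library than in any C. grandis library of the same boron level, yet missed the edgeR threshold at both (log2 difference +0.51 with edgeR adjusted p = 0.057 at 10 µM, and +0.44 with adjusted p = 0.0875 at 400 µM). Its 95% intervals by edgeR were 0.10 to 0.92 and 0.03 to 0.85. DESeq2 called it at both levels, and so did edgeR with median-of-ratios scaling. At the locus of the same sequence with the most counts the differences were +0.36 and +0.31 (adjusted p = 0.153 and 0.188), and of the 6 loci 1 unnamed locus passed the edgeR threshold at 10 µM (+0.54, adjusted p = 0.0458). miR8553b-s3, at 485 to 761 CPM over all libraries, had a species difference of -0.09 at 10 µM and -0.22 at 400 µM, whose sign changed under 3 of 20 alternatives at each level. For the 24-nt miR168b-3p that shares the core, the mean was 2254 ± 407 CPM in C. grandis controls and 1588 ± 136 in C. sinensis controls. The core-sharing sequences thus did not all lie on the same side: at both levels the values of s1 and s2 were higher in C. sinensis, and those of miR5014a-3p and the miR168b-3p sequence lower, under every alternative run. These sequences are only 1 to 4 edits apart, and the part of read assignment in their values was not tested.

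More of these sequences were called between the species than between the boron levels. At 10 µM, 11 of the 27 tested sequences were called (edgeR quasi-likelihood test, Benjamini-Hochberg adjusted p under 0.05 over all 170 tested entries), 5 of them higher and 6 lower in C. sinensis. The background over all 124 tested sequences was 11.3% called higher and 17.7% called lower. All told, 40.7% of the members were called, against 29.0% of all sequences, 29.4% of the unnamed 24-nt sequences and 24.3% of those of 20 to 22 nt. The median log2 difference was +0.11 for the 27 and -0.09 for all sequences. At 400 µM, 9 of 27 were called, 5 higher and 4 lower in C. sinensis, or 33.3% against 26.6% of all sequences, with a background of 8.87% called higher and 17.7% called lower. The median there was +0.15 for the 27 and -0.15 for all. These shares were not tested against each other.

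Called at both levels in the same direction were 7 sequences, 4 higher in C. sinensis (miR7496a, miR473a-5p, miR8713, miR5077) and 3 lower (miR7764-5p, miR5224b, miR6109). They are 63.6% of the calls at 10 µM and 77.8% of those at 400 µM, beside 61.1% and 66.7% for all sequences. DESeq2 called 15 and 10 members. Leaving out 1 library moved the counts by more than 1.5 times in 4 cases: at 10 µM to 7 without the second C. grandis control library and to 6 without the first C. sinensis control library, and at 400 µM to 5 without the third C. grandis library and to 5 without the second C. sinensis library. The forest plot of species differences gives each sequence at both levels.

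**Figure D3:**
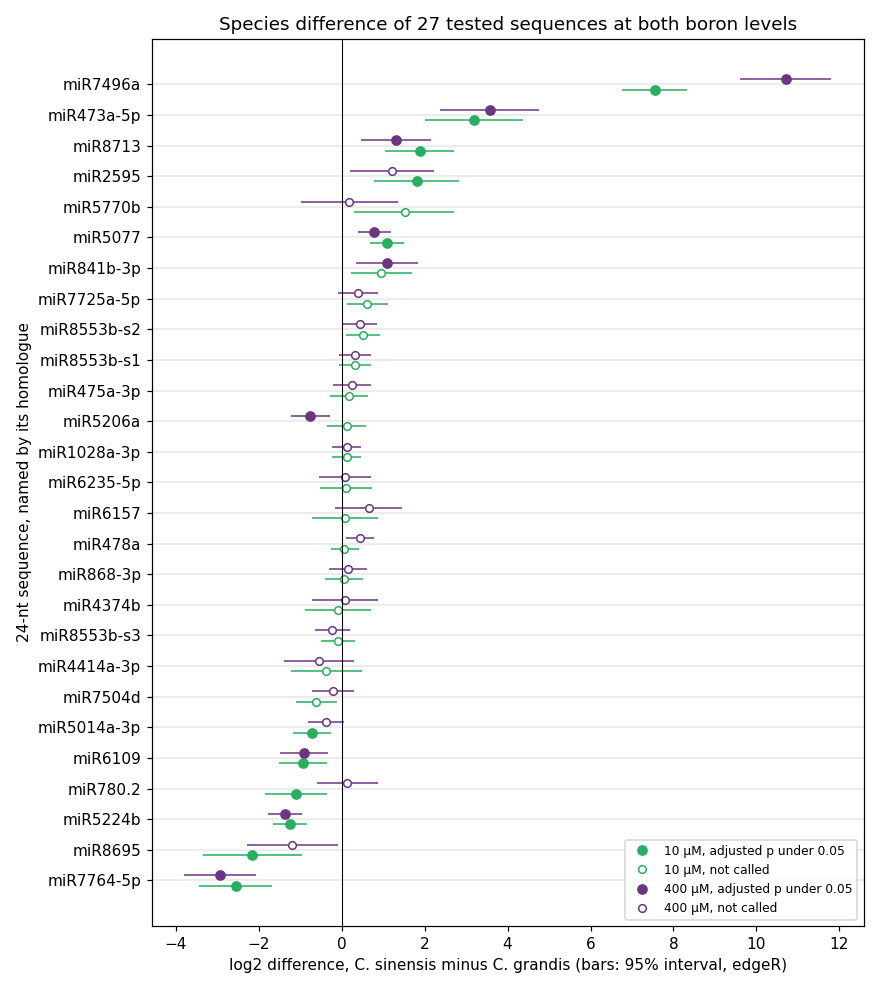
Log2 difference between species (C. sinensis minus C. grandis, horizontal axis) of the 27 tested sequences at 10 µM (green) and 400 µM (purple), with 95% intervals from edgeR; filled points have adjusted p under 0.05. miR7496a and miR473a-5p lie farthest to the right and miR7764-5p farthest to the left at both levels. The position of miR7496a depends on the prior count, because C. grandis has 5 or 0 counts.

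miR7496a, from scaffold 9 (27731873 to 27732122, plus strand), was read almost only in C. sinensis. It had 2, 1 and 2 counts in the C. grandis control libraries and 0 in each at 400 µM. In C. sinensis it had 185, 279 and 228 counts at 10 µM and 186, 255 and 214 at 400 µM, or 392 ± 42.7 and 277 ± 28.9 CPM (SD, n = 3). At 10 µM the summed counts of 692 against 5 give a ratio of 201 after scaling (95% exact counting interval 85.8 to 622, counting error only). At 400 µM the level in C. sinensis was at least 203-fold higher, with C. grandis set to a floor of 3 counts over the group. The edgeR adjusted p was 2.2e-08 at 10 µM and 3.61e-08 at 400 µM. Both species were counted on the same entries, and whether C. grandis carries the same sequence at this locus was not tested.

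miR473a-5p, named after a poplar miRNA, stood at 368, 605 and 311 CPM in C. grandis at 10 µM and at 514, 56.0 and 362 at 400 µM. In C. sinensis it stood at 3884, 4004 and 3922 CPM at 10 µM and 3561, 3701 and 3867 at 400 µM. Every C. sinensis library was above every C. grandis library, and the second C. grandis library at 400 µM was far below the other two. The log2 difference was +3.20 (SE 0.55, edgeR adjusted p = 0.000675) at 10 µM and +3.57 (SE 0.56, adjusted p = 0.000397) at 400 µM.

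The unnamed entry on the opposite strand, whose sequence stands beside that of miR473a-5p above, differed more. It had 64, 45 and 185 counts in C. grandis controls and 9, 10 and 18 at 400 µM, against 10846 to 18738 in the 6 C. sinensis libraries. Its species difference was +7.56 (SE 0.56, edgeR adjusted p = 2.65e-07) at 10 µM and +10.31 (SE 0.64, adjusted p = 3.61e-08) at 400 µM. The ratio of miR473a-5p to the unnamed entry therefore inverted: 1.35 to 51.0 in the C. grandis libraries and 0.154 to 0.190 in the C. sinensis libraries. In C. grandis the unnamed entry fell by 2.78 on the log2 scale with boron (SE 0.54, edgeR adjusted p = 0.0167), whereas miR473a-5p differed by -0.46 (SE 0.51, adjusted p = 0.743). The mature sequences are 2 edits apart, and how reads were assigned to entries so alike is not given in the sources used here. The part of read assignment in these values was not tested.

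miR8713, from 2 loci with the same counts, had 16, 34 and 14 counts in C. grandis at 10 µM and 28, 22 and 8 at 400 µM, against 45, 66 and 46 and then 46, 61 and 45 in C. sinensis. At 51.2 to 95.9 CPM in C. sinensis and 11.7 to 34.2 in C. grandis, the species did not overlap at either level. It was higher in C. sinensis by +1.88 on the log2 scale (SE 0.39, edgeR adjusted p = 0.00286) at 10 µM and +1.31 (SE 0.39, adjusted p = 0.024) at 400 µM; the latter call was lost without the third C. grandis library at 400 µM (+0.98, adjusted p = 0.0713) and without the second C. sinensis library (+1.25, adjusted p = 0.0818).

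miR5077, named after a rice miRNA, was an abundant sequence with a smaller difference. It stood at 1249, 1474 and 1123 CPM in C. grandis at 10 µM and 1829, 1479 and 1364 at 400 µM, against 2903, 2277 and 3055 and then 2825, 2500 and 2748 in C. sinensis. Again no C. sinensis library reached down to a C. grandis one. The log2 difference was +1.10 (SE 0.19, edgeR adjusted p = 0.000675) at 10 µM and +0.79 (SE 0.18, adjusted p = 0.00716) at 400 µM, and it was called in all 20 alternatives at both levels.

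By edgeR, a further 2 sequences were called higher in C. sinensis at 1 level; DESeq2 called both at both levels. miR2595 stood at 39.9, 22.9 and 30.0 CPM in C. grandis controls and 147, 101 and 78.1 in C. sinensis controls, without overlap (log2 difference +1.81, SE 0.47, edgeR adjusted p = 0.0144). The call was lost without the second C. grandis control library (adjusted p = 0.0564) or the first C. sinensis control library (adjusted p = 0.057). At 400 µM its values of 63.9, 24.9 and 26.3 CPM overlapped those of C. sinensis at 141, 84.8 and 47.8 (+1.21, adjusted p = 0.0695). miR841b-3p stood at 575, 381 and 301 CPM in C. grandis at 400 µM and 1139, 912 and 641 in C. sinensis, again without overlap (+1.10, SE 0.34, adjusted p = 0.0287). Its values at 10 µM were 684, 714 and 297 CPM against 1128, 917 and 1240 (+0.95, adjusted p = 0.0529). The call at 400 µM was lost without the second or the third C. grandis library or the first or second C. sinensis library of that level, with adjusted p from 0.0586 to 0.109.

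On the other side, miR7764-5p, from the minus strand of scaffold 3 (33079771 to 33080020), was the sequence most strongly reduced in C. sinensis. It stood at 418, 259 and 181 CPM in C. grandis at 10 µM and 563, 356 and 253 at 400 µM. In C. sinensis it stood at 63.9, 36.3 and 47.6 CPM at 10 µM and 63.4, 56.2 and 35.3 at 400 µM, below every C. grandis library. On the log2 scale it differed by -2.55 (SE 0.40, edgeR adjusted p = 0.000502) at 10 µM and -2.93 (SE 0.40, adjusted p = 0.000145) at 400 µM.

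miR5224b, named after a Medicago truncatula miRNA, stood at 650, 559 and 540 CPM in C. grandis at 10 µM and 540, 647 and 476 at 400 µM. In C. sinensis it stood at 269, 216 and 251 CPM and then 235, 218 and 195, so that all 6 libraries were below the lowest of C. grandis. Between species it differed by -1.25 (SE 0.19, edgeR adjusted p = 0.000392) at 10 µM and -1.36 (SE 0.19, adjusted p = 0.000146) at 400 µM. Together with miR7764-5p it was called in every alternative at both levels.

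miR6109 stood at 201, 165 and 190 CPM in C. grandis at 10 µM and 129, 117 and 175 at 400 µM, against 111, 101 and 80.0 and then 99.9, 69.9 and 55.8 in C. sinensis. The species did not overlap at either level, with log2 differences of -0.93 (SE 0.27, edgeR adjusted p = 0.0253) and -0.91 (SE 0.27, adjusted p = 0.024). The calls were close to the threshold: that at 10 µM was lost in 7 of 20 alternatives, among them leaving out any C. sinensis control library or the first or second C. grandis one (adjusted p = 0.057 to 0.0893), and that at 400 µM in 13 of 20, with adjusted p up to 0.222. The libraries whose removal ended the call at 400 µM were the first and second controls of each species, the third C. grandis library at 400 µM, and the second and the third C. sinensis libraries at 400 µM. The direction was kept in all of them.

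A group of 3 sequences was called lower in C. sinensis at 10 µM only, and whether their differences changed with boron is given by the interaction tests below. miR8695 stood at 39.9, 38.8 and 31.2 CPM in C. grandis controls against 6.39, 11.3 and 5.71 in C. sinensis controls, which are 3, 9 and 3 counts (log2 difference -2.15, SE 0.55, edgeR adjusted p = 0.0132; 0.0535 without the first C. sinensis control library). At 400 µM it had 25, 12 and 27 counts against 2, 12 and 17, and the lowest C. grandis library at 18.7 CPM was below the highest of C. sinensis at 19.4 (-1.19, adjusted p = 0.0875). miR5014a-3p, the least abundant of the core-sharing sequences, stood at 276, 332 and 292 CPM against 173, 180 and 196 in the control libraries (-0.71, SE 0.21, adjusted p = 0.0253) and at 199, 319 and 262 against 189, 199 and 213 at 400 µM (-0.37, adjusted p = 0.174). Its call was lost in 6 of 20 alternatives: without the second C. grandis control library or the first or second C. sinensis control library (adjusted p = 0.0839 to 0.114), with no filter (0.104), with a mean CPM filter (0.0994) and with only the 6 control libraries (0.0609).

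miR780.2 stood at 371, 564 and 287 CPM in C. grandis controls against 139, 204 and 232 in C. sinensis controls, without overlap. The log2 difference at 10 µM was -1.09 (SE 0.35, edgeR adjusted p = 0.0367), and it was lost in 8 of 20 alternatives, among them leaving out the second C. grandis control library (-0.77, adjusted p = 0.133), the first or second C. sinensis control library, or the second C. sinensis library at 400 µM. At 400 µM the species had like values, 288, 249 and 113 CPM against 216, 264 and 239, with a difference of +0.14 (95% interval -0.60 to 0.89).

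**Figure D4:**
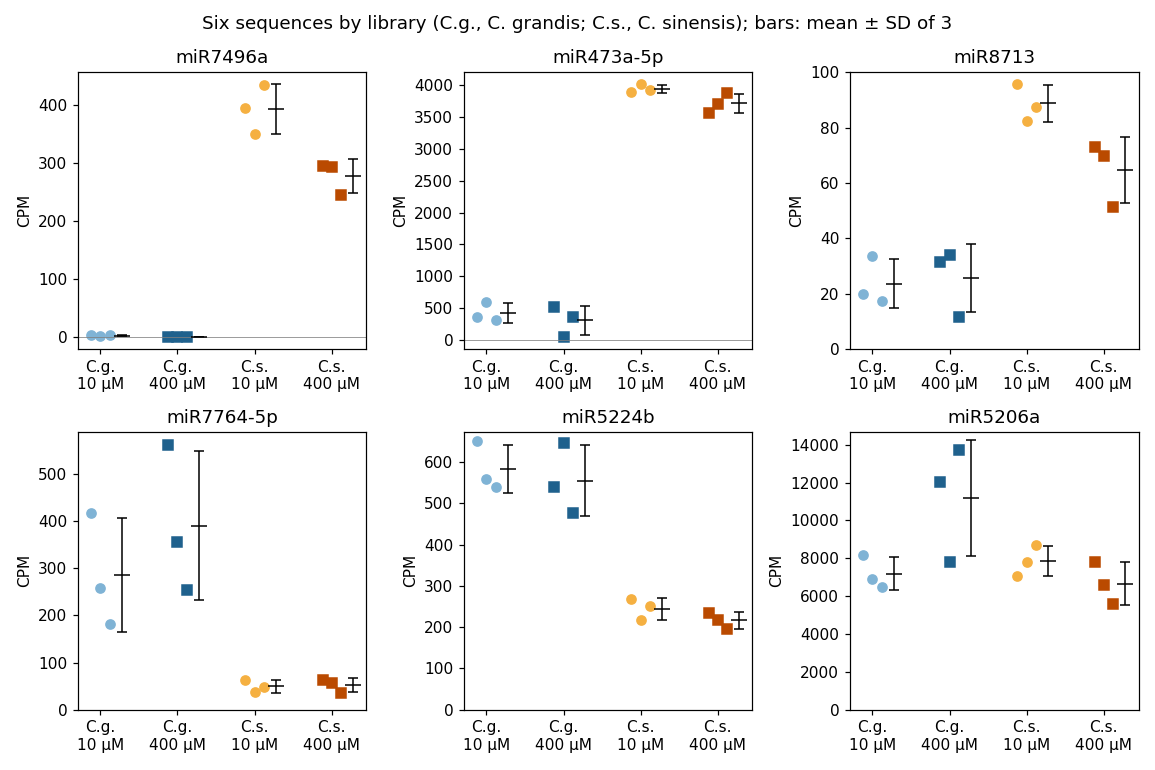
Level (CPM, vertical axis from 0) in each library of 6 sequences, with the mean and SD of 3 libraries beside each group; C.g. is C. grandis and C.s. is C. sinensis. The species separate fully for miR7496a, miR473a-5p, miR8713, miR7764-5p and miR5224b, while miR5206a is highest in 2 of the 3 C. grandis libraries at 400 µM.

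Under boron, none of the 27 sequences was called in C. grandis by edgeR, nor by DESeq2, and each tool found 3 at an unadjusted p under 0.05 (miR5206a, miR7496a and miR780.2). By edgeR, 23 of all 124 sequences had an unadjusted p under 0.05 there. The background over all 124 sequences was 0% called higher and 1.61% called lower at 400 µM, so a count of 0 is near it. The fitted value was higher at 400 µM for 10 of the 27 and lower for 17, with a median log2 difference of -0.15, against +0.05 for all sequences, -0.06 for the unnamed 24-nt sequences and +0.18 for those of 20 to 22 nt. It was higher for 70 and lower for 54 of all 124 sequences, and for 7 and 10 of the 17 unnamed 24-nt ones. The 95% interval lay within a 2-fold change (±1 on the log2 scale) for 17 of the 27.

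miR5206a, named after a Medicago truncatula miRNA, was the member with the smallest unadjusted p in C. grandis. It stood at 8154, 6915 and 6473 CPM at 10 µM and at 12037, 7804 and 13715 at 400 µM. The first and the third libraries at 400 µM were above all controls, while the second lay within their range. The log2 difference was +0.64 (SE 0.22, 95% interval 0.17 to 1.11, edgeR adjusted p = 0.131), and without that second library it was +0.84 with adjusted p = 0.02. In C. sinensis its values of 7066, 7799 and 8679 CPM at 10 µM and 7822, 6594 and 5556 at 400 µM overlapped (-0.24, SE 0.22, adjusted p = 0.887). The species difference, +0.13 at 10 µM, was called at 400 µM (-0.75, SE 0.22, adjusted p = 0.024). That call was lost in 15 of 20 alternatives, in which the difference ran from -0.44 to -0.75 with adjusted p up to 0.222; among the 12 libraries, removal of any but the third control of each species or the second C. grandis library at 400 µM ended it.

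miR780.2 stood in C. grandis at the control values given above and at 288, 249 and 113 CPM at 400 µM, and the highest value at 400 µM just exceeded the lowest control value of 287. The log2 difference was -0.91 (SE 0.34, edgeR adjusted p = 0.164). miR7496a had 5 counts in all in C. grandis controls and 0 at 400 µM, so its fitted difference of -3.65 (adjusted p = 0.131) depends on the prior count and is no measure of size. miR5770b had the highest fitted value at +1.04 (SE 0.55, adjusted p = 0.336), which rested on a wide spread: 58.6, 52.7 and 51.2 CPM at 10 µM, and 23.5, 232 and 81.8 at 400 µM. The second library at 400 µM was 9.87 times the first. Between the species at 10 µM, DESeq2 called miR5770b higher in C. sinensis, at 121, 166 and 177 CPM, and edgeR did not (+1.52, adjusted p = 0.057).

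In C. sinensis no sequence was called for boron by edgeR or DESeq2, and each found 1 at an unadjusted p under 0.05 (miR7496a), beside a background of 0% of all sequences called. By edgeR, 3 of all 124 sequences had an unadjusted p under 0.05 there. miR7496a, whose counts are given above, was at 394, 349 and 434 CPM at 10 µM and 295, 292 and 244 at 400 µM, which did not overlap (log2 difference -0.50, SE 0.23, edgeR adjusted p = 0.887). miR8713, at 82.5 to 95.9 CPM in controls and 51.2 to 73.0 at 400 µM, was lower in all 3 libraries at 400 µM than in any control library (-0.45, SE 0.37, adjusted p = 0.887). miR6109 overlapped between levels (-0.38, SE 0.27, adjusted p = 0.887). Of the 27, 11 had a higher and 16 a lower fitted value, with a median of -0.06 against +0.02 for all sequences. Of all 124 sequences, 68 had a higher and 56 a lower fitted value. The 95% interval lay within a 2-fold change for 19 of the 27. The forest plot of boron differences shows both species.

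**Figure D5:**
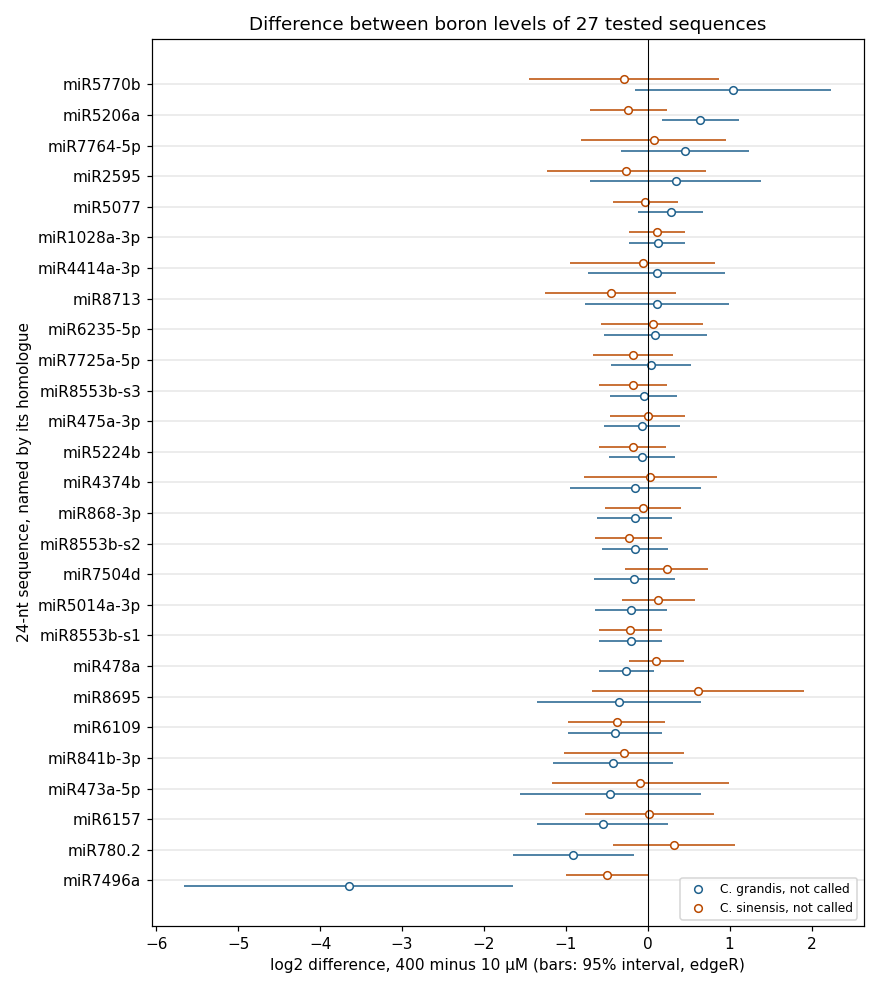
Log2 difference between boron levels (400 minus 10 µM, horizontal axis) of the 27 tested sequences in C. grandis (blue) and C. sinensis (orange), with 95% intervals from edgeR. No point was called in either species, and most intervals cross 0; miR7496a in C. grandis rests on 5 counts against 0.

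Whether boron acted differently in the species was tested by the interaction, and none of the 27 was called by edgeR or DESeq2, beside a background of 0% over all sequences. At an unadjusted p under 0.05 edgeR found 3 of the 27, beside 6 of all 124 sequences, and DESeq2 found 2 of the 27. For miR5206a the boron difference in C. sinensis was smaller by 0.88 on the log2 scale than in C. grandis (-0.88, SE 0.31, 95% interval -1.55 to -0.21, edgeR adjusted p = 0.403). For miR780.2 it was larger (+1.23, SE 0.49, 95% interval 0.18 to 2.28, adjusted p = 0.583), and for miR7496a the fitted +3.15 rests on the 5 counts in C. grandis. For miR8695 the interaction was +0.96 (SE 0.76) and for miR5014a-3p +0.34 (SE 0.29), both with adjusted p above 0.9. For miR2595 it was -0.60 (SE 0.66) and for miR841b-3p +0.14 (SE 0.48), each with adjusted p = 0.987.

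The authors' deposited table of miRNAs differentially expressed under boron lists 6 of the 28 sequences for C. grandis and 2 for C. sinensis. Each is marked there as up or down, although the false discovery rates are high. In the authors' deposited table, miR5206a has a log2 fold change of +0.62 in C. grandis with a false discovery rate of 0.560, miR780.2 -0.92 with 0.745, miR5770b +1.01 with 0.995 and miR6157 -0.60 with 0.995. For miR7496a, marked down, the log2 cell in the authors' deposited table is a spreadsheet error, with a false discovery rate of 0.745. In C. sinensis the authors' deposited table gives miR8695 at +0.62 with 0.901.

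The remaining sequences are given by their range. miR1028a-3p, named after a moss miRNA, ran from 896 to 1213 CPM over the 12 libraries, miR478a from 419 to 628, miR868-3p from 288 to 503 and miR475a-3p from 126 to 197. miR7725a-5p ran from 263 to 547 CPM, miR6235-5p from 161 to 372 and miR7504d from 130 to 250. miR4374b, miR4414a-3p and miR6157 were scarce, at 33.6 to 99.6, 21.2 to 73.5 and 20.2 to 68.6 CPM. By edgeR none of these 10 was called in any of the 5 comparisons, which does not show that their levels were equal. DESeq2 called miR7725a-5p at 10 µM and miR478a at 400 µM between the species (edgeR +0.62, adjusted p = 0.057, and +0.44, adjusted p = 0.0509).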

How the data were processed

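Small RNA libraries of root tips were sequenced single-end on an Illumina HiSeq 2500, per the labels' protocols. How reads were trimmed, aligned and called as miRNAs, and on which genome build, is not given in the sources used here; DESeq is named without a version in the submitters' processing notes. Counts of reads per miRNA locus, as whole numbers without normalisation, were deposited in the expression table. The deposited table of identified miRNAs gives mature and star sequences, hairpin windows of 250 nt and the authors' score of each hairpin. The authors' deposited table of differentially expressed miRNAs gives for each entry a p-value, its false discovery rate, a log2 fold change and a mark of up or down.

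The tests used edgeR 4.0.16 under R 4.3.3: trimmed-mean scaling, the filterByExpr filter with a count minimum of 10 (170 of 172 entries kept, 36 of the 37 considered here), 1 mean per group over 12 libraries and quasi-likelihood tests of 5 contrasts, two-sided, with Benjamini-Hochberg adjustment over all 170 entries. SEs are approximate, the absolute log2 difference over the root of F. The fit was tested on simulated data with the same spread in every entry and group. There DESeq2 1.42.0, an alternative only, made a larger share of false calls than edgeR, above the limit first set. The spread of these libraries differs between the species, so the simulation cannot say whether this holds here. Calls of DESeq2 alone are treated with caution. A sequence of the 28 that also has unnamed loci was left out of the unnamed class. Further alternatives changed the scaling (median of ratios, total counts), the filter (none, or mean CPM of 10), the entries (1 per sequence) or the libraries fitted (the 6 of 1 species or boron level), added a replicate block, or left out 1 library. Members and lists were chosen with earlier results of these data known. Sequences described in full were those called in any contrast, the 3 with the smallest p per contrast and the 3 most abundant; others were named with ranges, and miR5770b, miR8553b-s3 and the most abundant sequences beyond 3 were singled out after their values were seen.

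To see whether replicate numbers pair libraries, deviations from the group mean were correlated: in C. sinensis all 3 correlations across boron levels passed 0.1 (0.45, 0.27 and 0.31), in C. grandis they did not (-0.07, -0.24 and 0.24), and the labels do not tie numbers to a batch. All replicate pairs differed by more than counting error. edgeR's biological coefficient of variation came to 28.1% with all libraries, 34.9% for C. grandis and 19.2% for C. sinensis.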

Additional observations from a re-analysis of the deposited data

Results flagged for a closer look

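miR9560a-5p was left out of the tests by the filter on low counts, yet had 161 counts in the first C. grandis library at 400 µM. The other libraries of that group had 0 and 16 counts, the C. grandis controls 5, 7 and 0, the C. sinensis libraries 3, 4 and 4 at 400 µM and 0, 1 and 1 at 10 µM. It was singled out because a level above the controls appeared in an entry that no comparison used. In the authors' deposited table its log2 fold change is +3.96 in C. grandis (false discovery rate 0.876) and +2.15 in C. sinensis (0.805). The high value rests on 1 library.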

How the results depend on the processing

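Of the 20 calls of single sequences, 11 held in every alternative: miR473a-5p, miR5077, miR5224b, miR7496a and miR7764-5p at both levels and miR8713 at 10 µM. None of the 20 calls changed direction. Among values that were not called, signs were followed only for the smallest p per contrast and the core-sharing sequences. The species difference of miR8553b-s3 changed sign in 3 of 20 alternatives at each level. The difference of boron effects changed sign in 15 of 19 alternatives for miR8553b-s1, 9 of 18 for s2 and 6 of 19 for s3. For the 24-nt miR168b-3p it did so in 2 of 19, and the boron difference in C. sinensis in 2 of 20. Leaving out each library gave 0 to 1 called sequences for boron in C. grandis, 0 to 0 in C. sinensis, 0 to 0 for the difference of boron effects, 6 to 14 for the species at 10 µM and 5 to 11 at 400 µM. The 1 call for boron in C. grandis was miR5206a, without the second library at 400 µM. With the replicate block, a fit in which the pairing by number enters, the counts were 0, 0, 0, 13 and 10, and the block added no boron call. Species pairs of equal number had correlations of -0.21 to 0.31. The median of all entries moved by over 0.1 on the log2 scale under some scalings and filters: in C. grandis by -0.24 with total counts and -0.20 without a filter, for the difference of boron effects by +0.21 and +0.18, for the species at 10 µM by +0.14 with median-of-ratios and -0.17 with total counts, and at 400 µM by +0.18 with median-of-ratios, +0.25 without a filter and +0.16 with only 6 libraries. The calls of miR5206a and miR6109 at 400 µM were lost with median-of-ratios scaling and without a filter. Depth limits miR7496a in C. grandis, miR8695 in C. sinensis and miR9560a-5p.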
